A study of Mus musculus with 59 samples.

Results

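Cdkn1a, which encodes the cyclin-dependent kinase inhibitor p21, and other target genes of the transcription factor p53 were followed across livers of mice with altered E2F alleles. The members are Cdkn1a, Mdm2, Ccng1, Trp53, Trp53inp1, Btg2, Gadd45a, Bax and Sesn2, a list of 9 genes. They were chosen by their place in the p53 pathway after Cdkn1a had been seen to differ between the knock-in and the other livers in these arrays, so its values in those comparisons are given below as a description without a test. Probe sets annotated to exactly 1 gene symbol were taken, which gave 15 probe sets for 7 of the 9 genes, out of 18193 genes measured in this way. Trp53 and Bax were not analysed here, since the annotation used pairs no probe set with either symbol alone. The probe set of a gene that had the highest mean over the arrays is called its main probe set, and the other probe sets are described after it.

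RNA came from livers of mice 4 weeks old on a mixed background of FVB/NT, 129S1/Svlmj and C57BL/6NT, with no treatment named for any group. There were 12 wild-type arrays (wt), 10 arrays of E2f3a knock-out mice (3aKO), 10 of E2F1 knock-in mice (1KI) and 5 of E2F3b knock-in mice (3bKI). The values are log2 expression values as deposited, in 2 normalizations: wt, 3aKO and 1KI together in the first, and the same wt and 3aKO arrays with 3bKI in the second. 1KI and 3bKI were therefore never set against each other. The sources used here do not give the locus of the knock-ins, the cells in which the added alleles are active or the number of copies. Whether each array stands for its own animal is not stated in the labels, so the spread behind each p-value may be partly technical.

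When DNA is damaged or cells are stressed, p53 is stabilised and switches on genes that halt the cell cycle, repair DNA or start cell death. One of them, Mdm2, encodes the ligase that marks p53 for breakdown, which closes a negative feedback loop. The p21 protein inhibits cyclin-dependent kinases, so that the retinoblastoma family of pocket proteins stays bound to E2F factors and genes of DNA replication stay off. In the liver Cdkn1a is also known to respond to glucocorticoids, FOXO factors, fasting and the circadian clock, that is, to signals that need no p53.

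The sequence before the start of transcription is shown for the genes on which the comparison of array with array below turns, Cdkn1a with both of its annotated starts, Btg2 and Ccng1. The sequences are from RefSeq on build GRCm38.p6, run 5′ to 3′ on the coding strand and end 1 base before the start. Capitals mark matches to a p53 half-site, a motif of 10 bases, or to a GC box (GGGCGG), the site of Sp1-family factors. The windows lie at chr17:29090729-29090978 (plus strand, upstream start of Cdkn1a), chr17:29093519-29093768 (plus strand, downstream start of Cdkn1a), chr1:134079156-134079405 (minus strand, Btg2) and chr11:40755287-40755536 (minus strand, Ccng1).
Cdkn1a upstream start: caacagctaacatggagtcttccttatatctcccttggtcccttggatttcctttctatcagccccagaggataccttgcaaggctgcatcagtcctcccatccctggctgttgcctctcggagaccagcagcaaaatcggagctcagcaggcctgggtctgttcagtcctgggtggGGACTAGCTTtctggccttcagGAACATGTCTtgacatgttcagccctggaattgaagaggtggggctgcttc
Cdkn1a downstream start: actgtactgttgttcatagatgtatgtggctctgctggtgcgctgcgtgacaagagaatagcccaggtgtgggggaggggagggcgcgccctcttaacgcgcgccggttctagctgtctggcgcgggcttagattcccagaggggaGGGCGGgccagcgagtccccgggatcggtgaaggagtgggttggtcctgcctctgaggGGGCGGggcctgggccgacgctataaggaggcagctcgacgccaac
Btg2: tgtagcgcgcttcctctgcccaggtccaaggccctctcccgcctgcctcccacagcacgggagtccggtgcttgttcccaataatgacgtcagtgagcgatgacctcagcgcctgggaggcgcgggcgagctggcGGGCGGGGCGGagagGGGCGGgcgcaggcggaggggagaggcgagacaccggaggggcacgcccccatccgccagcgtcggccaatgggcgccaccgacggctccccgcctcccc
Ccng1: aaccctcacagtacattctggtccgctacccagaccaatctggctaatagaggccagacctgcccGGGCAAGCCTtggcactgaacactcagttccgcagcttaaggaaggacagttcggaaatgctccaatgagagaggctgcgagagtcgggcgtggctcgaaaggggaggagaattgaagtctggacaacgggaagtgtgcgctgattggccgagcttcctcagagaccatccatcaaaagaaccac
The upstream start of Cdkn1a is preceded by 2 p53 half-site matches, GGACTAGCTT and GAACATGTCT, the second of them 51 to 42 bases before the start. The downstream start of Cdkn1a has 2 GC boxes and no half-site match, Btg2 has 3 GC boxes, 2 of which overlap, and Ccng1 has 1 half-site match, GGGCAAGCCT. Both strands were searched over the window from 250 bases before to 50 bases after the start in 7 windows of 6 members. Mdm2 and Gadd45a also held 1 half-site match each, Sesn2 held none, and Trp53inp1 was not searched. Of 32851 promoter windows of all genes, 8.36% held a p53 half-site match and 35.7% a GC box. An E2F site (TTTCCCGC, TTTCGCGC, TTTGCCGC or TTTGGCGC), held by 2.26% of all windows, and an E-box (CACGTG), held by 7.15%, matched in 0 of the 7 windows.

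Liver identity and technical differences were checked on the same arrays. The mean log2 signal of 14 hepatocyte markers lay between 13.76 and 13.98 in each array of the first normalization. The arrays were split by their spiked-in hybridization controls at the lowest knock-in array of each normalization, 10.999 in the first and 11.231 in the second. All 10 1KI and all 5 3bKI arrays are thus in the higher level by definition. Among the others, wt replicates 1 and 2 lay there too (11.512 and 11.396 in the first normalization). The other 10 wt and all 10 3aKO arrays form the lower level, at 10.497 or below in the first normalization. No array of the first normalization lay between 10.497 and 10.999. No 3aKO array shares the level of the knock-ins. In 1KI too, genotype and array preparation can thus hardly be told apart, and the changes in 1KI below are those of livers labelled so. A fit with that level as a block thus sets a knock-in against 2 wt arrays, and it was run on main probe sets only. 1KI replicate 6 stood apart in RNA integrity, with a 3′ minus 5′ signal difference of 1.75 on the log2 scale against a median of 0.50 in its group, and the 3bKI arrays had a lower difference (0.31 ± 0.04, SD, n = 5) than wt (0.56 ± 0.05, n = 12). Spiked-in poly-A controls, which are added to the RNA before labelling, read 13.8 ± 0.04 in the 5 3bKI arrays and 9.04 ± 0.39 in wt, so that genotype and array preparation cannot be told apart in any 3bKI result. An index of sex-linked genes (Xist minus the mean of Y-linked genes) was high, the female pattern, in 5 wt, 5 3aKO, 5 1KI and 2 3bKI arrays and low in the rest, so each group mixes the sexes. Of the altered genes, E2f3 was lower in 3aKO than in wt by 0.25 ± 0.07 (limma, adjusted p = 0.134), and E2f3 was also lower in 3bKI than in wt, with a change of -0.24 ± 0.09 (adjusted p = 0.0491). E2f1 was lower in the E2F1 knock-in, with changes of -0.25 ± 0.11 against wt (adjusted p = 0.0864) and -0.29 ± 0.11 against 3aKO (adjusted p = 0.0494). Neither gene was thus higher than in wt in the knock-in named for it, and where in the transcripts these probes lie is not given in the sources, so 1KI and 3bKI stand here for the livers labelled so.

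Cdkn1a had the highest positive difference of the 7 members in each of the 4 comparisons of a knock-in with wt or 3aKO, while in 1KI against wt the difference of Gadd45a, in the other direction, was larger in size. Its main probe set, 1421679_a_at, read between 7.21 and 8.33 in the 12 wt arrays, with a median of 7.57 and a mean of 7.62 ± 0.36 (SD). In 3aKO it read between 7.18 and 7.83, with a median of 7.50 and a mean of 7.52 ± 0.25 (n = 10). These groups overlapped throughout, and the change of -0.10 ± 0.19 in 3aKO against wt did not pass (limma, adjusted p = 0.87).

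In 1KI livers Cdkn1a ran from 6.96 to 9.47, with a median of 8.30 and a mean of 8.43 ± 0.72 (SD, n = 10). Of the 10 arrays 5 lay above the highest wt array and 9 above the highest 3aKO array, while replicate 6 lay below the lowest array of both. The mean was 0.81 above wt and 0.92 above 3aKO on the log2 scale, and 0.98 above wt without replicate 6. Against the 2 wt arrays of the same hybridization control level, which read 7.25 and 7.64, the difference was 0.99. Both of these wt arrays lay within the range of the other 10.

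In 3bKI livers, in the second normalization, the 5 arrays read 9.39, 7.54, 9.80, 8.01 and 8.51 in replicates 1 to 5, with a mean of 8.65 ± 0.94 (SD), beside 7.59 ± 0.36 in wt and 7.51 ± 0.29 in 3aKO. Replicates 1, 3 and 5 lay above every wt array, replicate 4 lay within the wt range and above the highest 3aKO array, and replicate 2 lay within both ranges. The mean was 1.06 above wt and 1.14 above 3aKO, and leaving out 1 array at a time moved the difference to wt between 0.77 and 1.34. With RNA integrity as a covariate the differences were 0.39 and 0.27. The 3bKI arrays also differ from the others in that measure, and its part in these values cannot be told apart from the genotype.

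The second probe set of Cdkn1a, 1424638_at, followed the first from array to array. The 2 probe sets correlated with r = 0.937 in wt, 0.796 in 3aKO and 0.944 in 1KI, and with r = 0.992 over the 5 3bKI arrays, a description over arrays normalized together. Its differences were larger, with 1.40 (wt) and 1.51 (3aKO) for 1KI, and 1.57 (wt) and 1.66 (3aKO) for 3bKI. On this probe set 1KI replicate 6 read 7.04, within the wt range of 6.45 to 7.90, and the 3bKI arrays ran from 6.87 to 9.83.

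**Figure D1:**
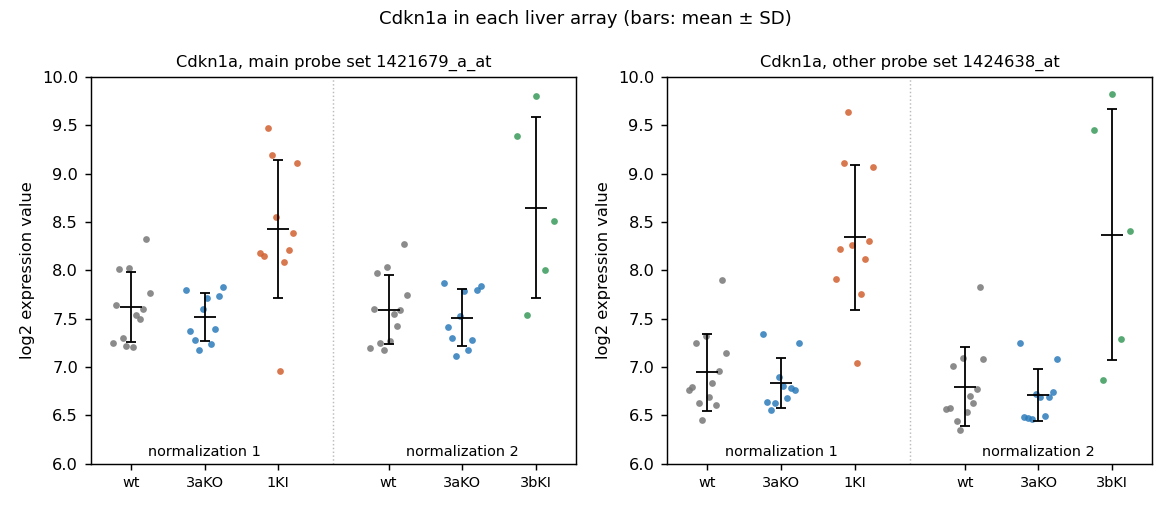
Log2 expression value of Cdkn1a in each array by genotype, for its main probe set (left) and its other probe set (right), with normalization 1 to the left and normalization 2 to the right of each dotted line. Points are arrays and bars are the mean ± SD. The wt and 3aKO arrays stay at or below 8.33 on the main probe set, while 1KI reaches 9.47 and 3bKI reaches 9.80 with arrays spread over the whole span.

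The other 6 measured members did not follow Cdkn1a as a group. In 1KI against wt 3 of them rose, Mdm2, Btg2 and Sesn2, and 2 fell, Ccng1 and Gadd45a, at an adjusted p of 0.05 (limma), where 10.2% of all genes were higher and 17.5% lower. Set against 3aKO, the same 3 rose in 1KI on their main probe sets and 0 fell, beside 11.9% of all genes higher and 19.0% lower. With the mean of a gene's probe sets Btg2 did not pass there (0.28, limma, adjusted p = 0.134). Ccng1 then fell (-0.37, adjusted p = 0.000125), while Mdm2 and Sesn2 still rose. Of the 6 members 0 passed in 3bKI against wt (limma), although 13.4% of all genes were higher and 15.9% lower there and 6949 of 18193 genes had an unadjusted p under 0.05. Against 3aKO 2 members rose in 3bKI, Mdm2 and Ccng1, and 1 fell, Trp53inp1, beside 16.5% of all genes higher and 17.7% lower. Between 3aKO and wt 0 of 6 passed (limma), beside 0.110% of all genes higher and 0.0660% lower, with 2166 genes at an unadjusted p under 0.05. When the hybridization control level was a block, the calls fell to Btg2 alone in 1KI against wt and to 0 of 6 in each of the other comparisons. In that fit 2.13% of all genes were higher and 2.17% lower in 1KI against wt, and 1.18% and 1.11% against 3aKO. In 3bKI these shares were 3.31% and 5.39% against wt, and 2.39% and 4.38% against 3aKO.

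The median log2 change of the 6 members in 1KI was 0.21 against wt and 0.18 against 3aKO, beside -0.05 and -0.03 over all genes. For 3bKI it was 0.11 against wt and 0.14 against 3aKO, beside 0.00 and 0.02 over all genes. All comparisons of a normalization share their wt or 3aKO arrays, so they are not independent of each other.

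**Figure D2:**
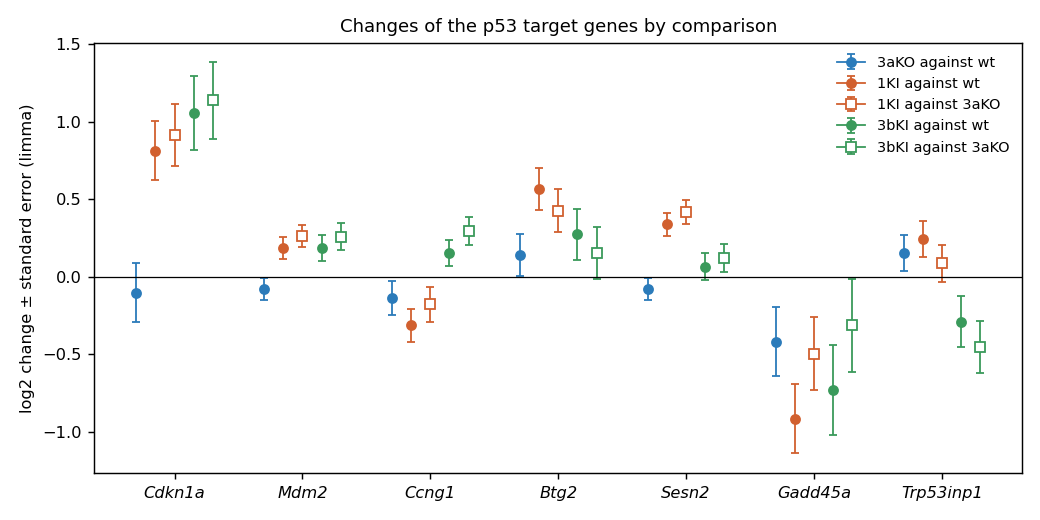
Log2 change with its standard error from limma (vertical axis) of each measured p53 target gene in the 5 comparisons (colours and symbols). Cdkn1a, shown as a description, lies between 0.81 and 1.14 in the 4 knock-in comparisons, Mdm2 between 0.18 and 0.26, and Gadd45a below 0 in all 5.

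Mdm2, the ligase of the feedback loop, lay above the wt and 3aKO medians in each array of both knock-ins. In wt its main probe set, 1423605_a_at, read 8.28 to 8.89 with a median of 8.49, in 3aKO 8.31 to 8.70 with a median of 8.45, and in 1KI 8.54 to 9.00 with a median of 8.74. The 1KI arrays lay high, although the ranges overlapped. Mdm2 rose in 1KI by 0.18 ± 0.07 against wt (limma, adjusted p = 0.0451) and by 0.26 ± 0.07 against 3aKO (adjusted p = 0.00534). The call against wt stands at the threshold: leaving out any of wt replicates 1, 2, 3, 4, 5, 8, 9 and 11 or 1KI replicates 1, 2, 3, 8 and 9 ended it, with adjusted p between 0.0528 and 0.0947. With the level as a block both calls ended, at 0.28 against wt (adjusted p = 0.22) and 0.38 against 3aKO (adjusted p = 0.172).

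In 3bKI Mdm2 read 8.61, 8.61, 8.73, 8.90 and 8.68, all above the wt and 3aKO medians of 8.45 and 8.41. It rose against 3aKO by 0.26 ± 0.09 (limma, adjusted p = 0.0228), a call that ended without 3bKI replicate 4 (0.21, adjusted p = 0.0893) and with the level as a block (0.38, adjusted p = 0.136), and that turned in sign with RNA integrity as a covariate (-0.10, adjusted p = 0.866, and -0.094, adjusted p = 0.835, against wt). Against wt the change of 0.19 ± 0.09 did not pass (adjusted p = 0.108), but passed without wt replicate 7 (adjusted p = 0.0479) or 12 (adjusted p = 0.0422). A second Mdm2 probe set, 1427718_a_at, gave larger changes in the fit over all probe sets, with 0.22 ± 0.07 for 1KI (adjusted p = 0.012) and 0.38 ± 0.08 for 3bKI (adjusted p = 0.000762), both against wt. The third, 1457929_at, read 4.13 to 4.98 in all groups of the first normalization and did not pass in any of the 5 comparisons.

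Ccng1, which encodes cyclin G1, a partner of protein phosphatase 2A in the control of Mdm2, moved the other way from Cdkn1a in 1KI. Its main probe set, 1450016_at, read 9.00 to 9.40 in wt (median 9.14), 8.77 to 9.30 in 3aKO (median 9.16) and 7.86 to 9.19 in 1KI (median 9.00). Of the 10 1KI arrays 5 lay below every wt array, replicate 6 farthest below. Ccng1 fell in 1KI against wt by 0.31 ± 0.11 (limma, adjusted p = 0.0274), and by 0.20 (adjusted p = 0.0487) without 1KI replicate 6. Leaving out 1KI replicate 5 ended the call (-0.28, adjusted p = 0.0571), as did the level as a block (-0.20, adjusted p = 0.618).

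The other 2 probe sets of Ccng1 also fell in 1KI against wt, 1420827_a_at by 0.37 ± 0.06 (adjusted p = 4.08e-05) and 1450017_at by 0.38 ± 0.08 (adjusted p = 0.000444) in the fit over all probe sets. Against 3aKO the first of these fell by 0.53 ± 0.07 (adjusted p = 3.41e-07), with no overlap between 8.34 to 8.80 in 1KI and 8.88 to 9.37 in 3aKO. There 1450017_at fell by 0.39 ± 0.08 (adjusted p = 0.000387), and the main one did not pass (-0.18 ± 0.11, limma, adjusted p = 0.243). Of all probe sets 29.2% passed in 1KI against wt and 32% against 3aKO, and 30.2% and 34.9% in 3bKI. The share of all genes or probe sets without overlap is not given, here or for the genes below. In 3bKI the probe sets disagreed. The main one read 9.25, 9.29, 9.23, 9.54 and 9.26 and rose against 3aKO by 0.30 ± 0.09 (limma, adjusted p = 0.00946; 0.43 and adjusted p = 0.0871 with the level as a block, -0.088 and adjusted p = 0.88 with RNA integrity as a covariate), while 1420827_a_at, at 7.97 to 8.82 in 3bKI and 8.83 to 9.31 in 3aKO, fell by 0.48 ± 0.11 (adjusted p = 0.000708) without overlap. The third lay at -0.047 ± 0.082 (adjusted p = 0.698), so that no single direction can be given for Ccng1 in 3bKI.

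Btg2, an antiproliferative protein that recruits the CCR4-NOT deadenylase to messenger RNA, rose in 1KI. Its main probe set, 1416250_at, read 7.95 to 8.85 in wt (median 8.45), 8.21 to 8.86 in 3aKO (median 8.50) and 8.35 to 9.81 in 1KI (median 8.82). Of the 10 1KI arrays 5 lay above every wt array, with replicates 3 (9.81) and 4 (9.39) highest. The change was 0.57 ± 0.13 against wt (limma, adjusted p = 0.00165) and 0.43 ± 0.14 against 3aKO (adjusted p = 0.0186). Against the wt arrays of the same hybridization control level, which read 8.05 and 7.95, it was 0.92 (adjusted p = 0.0188), and against 3aKO with the level as a block 0.85 (adjusted p = 0.0828). In 3bKI Btg2 read 9.08, 8.21, 9.09, 8.37 and 8.10, high in replicates 1 and 3 and within the wt range in the others, and did not pass against wt (0.27 ± 0.16, adjusted p = 0.226) or 3aKO (0.15 ± 0.17, adjusted p = 0.523). The other probe set, 1448272_at, did not pass in 1KI against wt (0.22 ± 0.14, adjusted p = 0.255), where it ran from 6.95 to 8.97 beside 7.28 to 8.17 in wt.

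Sesn2, which encodes sestrin 2, a leucine-binding inhibitor of mTORC1 signalling, rose in 1KI. Its main probe set, 1451599_at, read 7.57 to 8.11 in wt (median 7.76), 7.53 to 7.94 in 3aKO (median 7.73) and 7.93 to 8.48 in 1KI (median 8.10). Of the 1KI arrays 9 lay above every 3aKO array and 5 above every wt array. The change was 0.34 ± 0.07 against wt (limma, adjusted p = 0.000693) and 0.42 ± 0.08 against 3aKO (adjusted p = 7.42e-05). Unlike Cdkn1a and Btg2, Sesn2 stood high in the wt arrays of the higher hybridization control level, 8.01 and 8.11 in replicates 1 and 2, and with the level as a block the changes were 0.073 against wt (adjusted p = 0.787) and 0.098 against 3aKO (adjusted p = 0.794). Its second probe set, 1425139_at, rose as well, by 0.31 ± 0.10 against wt (adjusted p = 0.0165). In 3bKI the main probe set read 8.00, 7.76, 7.80, 7.79 and 7.67, within the wt range of the second normalization. Its change against wt was 0.065 ± 0.087 (limma, adjusted p = 0.634). The second probe set ran from 6.38 to 7.36 in 3bKI, beside 6.61 to 7.20 in wt.

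Gadd45a, a small stress protein that binds PCNA and stress kinases, was the most variable member within wt, with 5.47 to 7.98 around a median of 6.59 at its single probe set, 1449519_at. In 3aKO it read 5.11 to 7.28 (median 6.09) and in 1KI 4.85 to 6.33 (median 5.58). All 10 1KI arrays lay below the wt median, and Gadd45a fell against wt by 0.91 ± 0.22 (limma, adjusted p = 0.00246), 0.81 within the higher control level (adjusted p = 0.285). Against 3aKO the change of -0.50 ± 0.23 did not pass (adjusted p = 0.108) unless 3aKO replicate 8 was left out (-0.62, adjusted p = 0.0373). In 3bKI it read 5.96, 5.24, 6.31, 6.22 and 5.83, all below the wt median of 6.61, with a change against wt of -0.73 ± 0.29 that did not pass (adjusted p = 0.0586), and that passed without wt replicate 6 (-0.83, adjusted p = 0.0216) or 12 (-0.78, adjusted p = 0.0483). In both knock-ins the mean of Gadd45a thus lay on the other side of wt from that of Cdkn1a.

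Trp53inp1, a stress-induced nuclear and autophagy protein, read 9.50 to 10.75 in wt (median 10.06), 9.78 to 10.51 in 3aKO (median 10.29) and 9.85 to 10.64 in 1KI (median 10.35) at its main probe set, 1416926_at. It did not pass in 1KI against wt (0.24 ± 0.12, limma, adjusted p = 0.117), although it did without wt replicate 11 (0.30, adjusted p = 0.0349). The 3bKI arrays fell into 10.28, 10.02 and 9.95 on one side and 9.27 and 9.32 on the other, in replicates 1, 4 and 5 and in replicates 2 and 3. Trp53inp1 fell against 3aKO by 0.45 ± 0.17 (adjusted p = 0.038). Leaving out any of 3aKO replicates 1, 2, 3, 6 and 10 or 3bKI replicates 2 and 3 ended that call, with adjusted p up to 0.164, and so did the level as a block (-0.41, adjusted p = 0.48). The second probe set, 1416927_at, differed by 0.00 between 1KI and wt and by -0.03 between 3bKI and 3aKO.

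**Figure D3:**
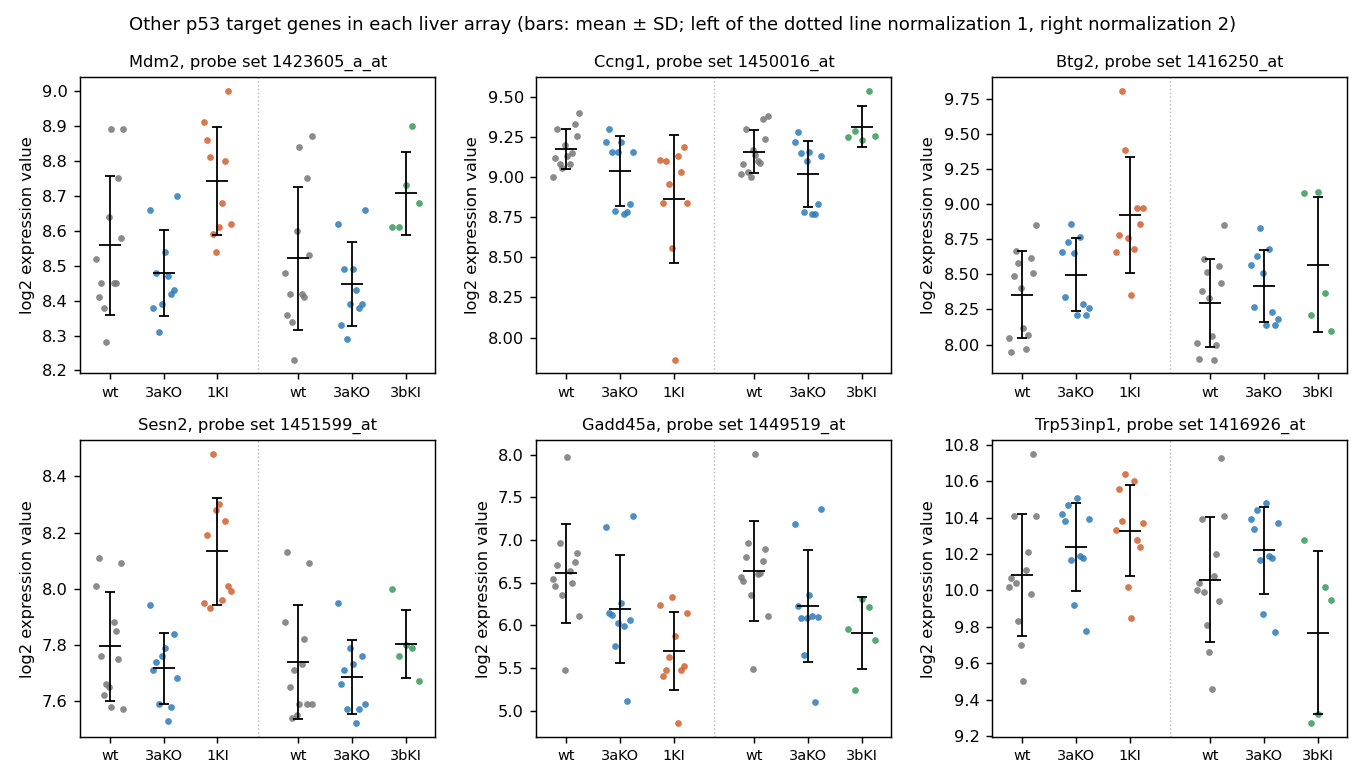
Log2 expression value of the main probe set of the other 6 p53 target genes in each array by genotype, each panel with its own vertical axis. Points are arrays and bars are the mean ± SD. Sesn2 in 1KI lies at 7.93 or above, Ccng1 of 1KI replicate 6 at 7.86 lies far below the rest, and Gadd45a spans 5.47 to 7.98 within wt.

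Whether Cdkn1a moves with the other members was asked again within each genotype, where differences between groups play no part. Over 18 pairs of a member and a genotype (wt, 3aKO and 1KI), 1 passed an adjusted p of 0.05. This was Btg2 in 1KI, with Pearson's r = 0.875 over 10 arrays (2-sided permutation test, p = 0.00073, adjusted p = 0.0131). Spearman's rho was 0.851 (permutation p = 0.00279, adjusted p = 0.0502). It did not pass without the 2 arrays farthest from the median of Cdkn1a (r = 0.783, permutation p = 0.0167, adjusted p = 0.075). It passed without replicate 6 (r = 0.864, adjusted p = 0.0333), with the other probe set of Cdkn1a (r = 0.844, adjusted p = 0.0329) and with both genes centred within the arrays of 1 sex pattern (r = 0.851, adjusted p = 0.0243). All 10 1KI arrays are in the higher hybridization control level by its definition. 1KI replicates 3 and 4, with Cdkn1a at 9.47 and 9.19, also had the highest Btg2.

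In wt the same pair gave r = 0.265 (adjusted p = 0.558) and in 3aKO r = -0.589 (adjusted p = 0.187), and a difference of r between genotypes was not tested. The next strongest pairs did not pass, with an adjusted p of 0.0802 each: Sesn2, Mdm2 and Gadd45a in 3aKO (r = 0.722, 0.705 and 0.67, permutation test, n = 10) and Ccng1 and Trp53inp1 in wt (r = 0.655 and 0.641, n = 12). Without wt replicates 1 and 2 the latter were 0.615 and 0.657. With both genes centred within a sex pattern Sesn2 in 3aKO passed as well (r = 0.867, adjusted p = 0.0426). For Ccng1 in 1KI r was 0.603 with replicate 6 and -0.108 without it, so that this value rested on 1 array.

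Likeness to Cdkn1a was then ranked over all genes, as a description without a test. For each gene the deviations from the group means were correlated with those of Cdkn1a over the 32 arrays of the first normalization, which share their normalization. The median r of the 6 members was 0.28 and all 6 were above 0, beside a median of 0.02 over 18192 genes. Ccng1 (r = 0.57), Btg2 (0.50) and Trp53inp1 (0.43) were higher than 98.9%, 97.0% and 93.9% of all genes, and Mdm2 (0.12), Sesn2 (0.09) and Gadd45a (0.02) stood at 64.4%, 60.0% and 51.0%. Without 1KI replicate 6 the order changed: Ccng1 fell by rank to 88.5% of all genes (r = 0.23), Btg2 stood at 98.1% (0.40), Trp53inp1 at 94.6% (0.31) and Sesn2 at 91.2% (0.26). In the second normalization r over 27 arrays was 0.37 for Btg2 and 0.19 for Ccng1.

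None of the 6 members was among the 8 genes with mean signal above the median that were most like Cdkn1a. These were Net1 (r = 0.76), Pnp (0.74), Dusp16 (0.73), Desi2 (0.73), Tmem37 (0.73), Litaf (0.71), Atp1b3 (0.71) and Crp (0.69). Net1 encodes an exchange factor for RhoA, Pnp a purine nucleoside phosphorylase, Dusp16 a MAP kinase phosphatase and Litaf a protein of late endosomes that is also known as a p53-induced gene. Without 1KI replicate 6 all 8 stayed positive, between 0.43 for Crp and 0.57 for Net1, and in the second normalization they ranged from 0.09 for Dusp16 to 0.73 for Litaf. The 8 were picked on these same arrays, and the second normalization shares the wt and 3aKO arrays, so neither value is an independent check. Within 1KI r ran from 0.755 for Litaf to 0.898 for Crp. In wt alone r ran from 0.203 for Dusp16 to 0.837 for Net1. In 3aKO it ran from -0.298 for Desi2 and -0.281 for Crp to 0.62 for Atp1b3.

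The genes that ran most opposite to Cdkn1a were Myo6 (r = -0.78), Dbp (-0.75), Vps37a (-0.74) and Fgfrl1 (-0.73). Dbp, a transcription factor of the circadian clock's output whose level swings widely over the day in liver, had r = -0.66 without 1KI replicate 6 and the lowest r of all 18192 genes in the second normalization, -0.87. In wt Dbp ran from 10.49 to 12.34 with r = -0.808 to Cdkn1a over 12 arrays, in 1KI from 9.25 to 12.65 with r = -0.793 over 10 arrays, and in 3aKO from 11.58 to 12.51 with r = -0.141. In 3bKI Dbp read 6.97, 11.68, 6.56, 11.49 and 9.73 in replicates 1 to 5, so that the order of the 5 arrays by Dbp was exactly the reverse of their order by Cdkn1a. Replicates 1 and 3, with the highest Cdkn1a (9.39 and 9.80) and Btg2 and the lowest Dbp, are also the 2 3bKI arrays with the female pattern of sex-linked genes, and the part of sex in this order was not tested. In wt Cdkn1a had a median of 7.30 in the 5 arrays of the female pattern and 7.60 in the other 7, and in 1KI 8.55 and 8.21 in 5 arrays each, with overlap in both groups. The 1KI arrays with the highest Cdkn1a, replicates 3 and 4, had the lowest Dbp of their group, 9.25 and 9.59.

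Some other clock genes of a list of 20 measured ones, named after their values were seen, also had r far from 0 over the 32 arrays. These were Nfil3 (0.64) and Clock (0.51) on the positive side and Nr1d2 (-0.62) on the negative side. The median of the list was -0.09. Without 1KI replicate 6 they were 0.40, 0.45 and -0.57, and the median was -0.08. Dbp itself fell in both knock-ins. Its change against wt was -0.88 ± 0.28 in 1KI (limma, adjusted p = 0.0175) and -2.58 ± 0.54 in 3bKI (adjusted p = 0.000461). With the control level as a block these changes were -1.24 (adjusted p = 0.172) and -2.93 (adjusted p = 0.0313), and with RNA integrity as a covariate the change in 3bKI was -1.60 (adjusted p = 0.472). At what hour the livers were taken is not stated in the labels, and its part in the Cdkn1a values was not tested.

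**Figure D4:**
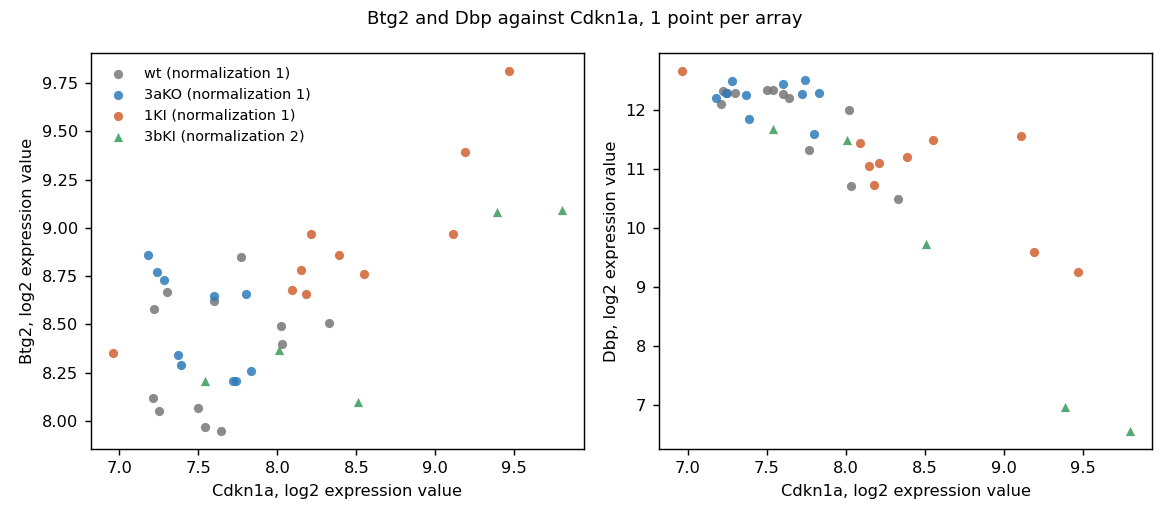
Log2 expression value of Btg2 (left) and Dbp (right) against that of Cdkn1a, 1 point per array, coloured by genotype, with 3bKI (triangles) taken from normalization 2. Btg2 rises with Cdkn1a among the 1KI arrays (r = 0.875). Dbp falls as Cdkn1a rises among the wt (r = -0.808) and the 1KI arrays (r = -0.793), while r is -0.141 in 3aKO. Among the 3bKI arrays Dbp goes from 11.68 at the lowest Cdkn1a to 6.56 at the highest, and these are not compared with 1KI.

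Wider p53 target genes, 46 measured of a list of 50 that holds no member, moved in both directions. Against wt, 6 rose in 1KI (13.0% of the list) and 10 fell (21.7%), with a median change of -0.06. Against 3aKO, 9 rose in 1KI (19.6%) and 12 fell (26.1%), with a median of -0.05. The 3bKI livers had 8 higher (17.4%) and 7 lower (15.2%) than wt, and 10 higher (21.7%) and 9 lower (19.6%) than 3aKO, with medians of 0.01 and 0.00. These shares stand beside those of all genes given above, and 0 of 46 passed between 3aKO and wt (limma). With the level as a block 2 rose and 1 fell against wt in each knock-in, where 2.13% and 3.31% of all genes were higher and 2.17% and 5.39% lower.

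Of the p53 targets with the smallest p in 1KI, Ddb2, which recognises ultraviolet damage in DNA, rose by 0.51 ± 0.10 against wt (limma, adjusted p = 0.000204) and by 0.60 ± 0.10 against 3aKO. Cdip1, a cell death gene, rose by 0.36 ± 0.06 against wt (adjusted p = 4.74e-05), and Ddit4, an inhibitor of mTORC1 that glucocorticoids also induce, by 0.85 ± 0.15 against 3aKO (adjusted p = 6.34e-05). Igfbp3, an IGF-binding protein, fell by 0.51 ± 0.08 (adjusted p = 5.13e-06) and Mgmt, which repairs alkylated guanine, by 0.35 ± 0.07 (adjusted p = 0.000146) against wt. Of these, Ddb2 (0.63, adjusted p = 0.0392) and Cdip1 (0.40, adjusted p = 0.0372) also passed against wt with the level as a block. Igfbp3 (-0.44, adjusted p = 0.0609) and Mgmt (-0.36, adjusted p = 0.0872) did not, nor did Ddit4 against 3aKO (1.00, adjusted p = 0.0777).

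In 3bKI other p53 targets led. Steap3, a ferrireductase, rose by 0.76 ± 0.10 against wt (limma, adjusted p = 9.88e-07) and Triap1, a mitochondrial survival factor, by 0.43 ± 0.06 (adjusted p = 1.36e-06), both without overlap with wt. Bbc3, which encodes the cell death protein PUMA, rose by 0.99 ± 0.17 against 3aKO (adjusted p = 2.47e-05). Zmat3, an RNA-binding regulator of splicing, and Ei24 fell against wt by 0.33 ± 0.06 and 0.31 ± 0.05 (adjusted p = 4.63e-05 and 5.05e-05), without overlap. With the level as a block Steap3 (0.60, adjusted p = 0.0137), Triap1 (0.43, adjusted p = 0.00431) and Ei24 (-0.35, adjusted p = 0.01) passed against wt, and Zmat3 (-0.26, adjusted p = 0.0679) and Bbc3 against 3aKO (0.86, adjusted p = 0.0706) did not. For 3bKI against wt, with RNA integrity as a covariate, 0 of 46 passed (limma), where 1.57% of all genes were higher and 1.75% lower.

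Of 23 measured regulators of p53, 3 rose and 1 fell in 1KI, and 3 rose and 7 fell in 3bKI, each against wt. These are 13.0% and 4.35% in 1KI, beside 10.2% and 17.5% of all genes, and 13.0% and 30.4% in 3bKI, beside 13.4% and 15.9%. With the level as a block 1 rose and 0 fell in 1KI and 0 rose and 1 fell in 3bKI, and with RNA integrity as a covariate 0 of 23 passed in 3bKI. The shares of all genes in these fits are those given above for the wider p53 target genes. Mdm4, a partner of Mdm2 that holds p53 inactive, rose in 1KI by 0.34 ± 0.08 against wt (limma, adjusted p = 0.00198; 0.63 and adjusted p = 0.00598 with the level as a block). Ppp1r13l, an inhibitor of p53-driven cell death, rose by 0.33 ± 0.08 (adjusted p = 0.00147), a change of 0.01 with the level as a block, and Rpl11, a ribosomal protein that can bind Mdm2, fell by 0.19 ± 0.04 (adjusted p = 0.000356; -0.14 and adjusted p = 0.25 with the level as a block). In 3bKI Atr, a kinase of the replication stress response, fell by 0.58 ± 0.09 (adjusted p = 1.6e-05) and Cop1, another ligase for p53, by 0.28 ± 0.05 (adjusted p = 4.75e-05), both without overlap with wt. Cop1 also passed with the level as a block (-0.27, adjusted p = 0.0262) and Atr did not (-0.35, adjusted p = 0.109).

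Among 7 other inhibitors of cyclin-dependent kinases, Cdkn1b, which encodes p27, rose in all 4 knock-in comparisons. Against wt the change was 0.94 ± 0.10 in 1KI (limma, adjusted p = 4.29e-08), with no overlap, and 0.79 ± 0.15 in 3bKI (adjusted p = 0.000148). Against the wt arrays of the higher hybridization control level it was 0.42 (adjusted p = 0.13) in 1KI and 0.24 (adjusted p = 0.514) in 3bKI, where Cdkn1a stood at 0.99 and 1.25. Cdkn2d fell in 1KI by 0.49 ± 0.10 and Cdkn2c by 0.29 ± 0.08 against wt (adjusted p = 0.00039 and 0.00516), and with the level as a block the changes were -0.53 (adjusted p = 0.103) and -0.13 (adjusted p = 0.654).

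Genes that p53 is known to lower through p21 and the DREAM complex, 29 measured cell cycle genes, had a median change in 1KI of -0.32 against wt, with 0 of 29 changes above 0, and of -0.41 against 3aKO. Of these, 4 fell against wt, Ube2c (by 0.72 ± 0.22), Mad2l1 (by 0.60 ± 0.20), Cdc25c (by 0.20 ± 0.07) and Pcna (by 0.46 ± 0.16), at adjusted p from 0.0128 to 0.0282 (limma), and 8 fell against 3aKO. The shares are 13.8% and 27.6% of the list, beside 17.5% and 19.0% of all genes. Of markers of other cell types, 0 of 17 for macrophages and Kupffer cells and 3 of 15 for lymphocytes fell in 1KI against wt. Against 3aKO 6 of 17 and 6 of 15 fell, and 0 and 1 rose. Of 16 endothelial markers 2 rose and 2 fell against wt, and 4 rose and 1 fell against 3aKO. Of 15 biliary and stellate cell markers 0 rose and 3 fell against wt, and 1 rose and 2 fell against 3aKO. Of 8 erythroid markers 0 passed in either comparison. Of 10 neutrophil markers 1 rose against wt and 0 passed against 3aKO. In 3bKI the medians of the 29 cell cycle genes were 0.00 against wt and -0.08 against 3aKO. Of them 1 gene, Mybl2, rose against wt (0.22 ± 0.07, limma, adjusted p = 0.0138). With RNA integrity as a covariate the median of 3bKI against wt was -0.54. With the level as a block 0 of 29 passed in each of the 4 comparisons, and the median in 1KI against wt was -0.21. The shares of all genes in that fit are those given above beside the members. From array to array within groups the cell cycle genes ran with Cdkn1a, not against it: 27 of 29 had r above 0 over the 32 arrays. Their median r was 0.31, beside 0.02 over all genes, and 0.44 without 1KI replicate 6, beside -0.01 over all genes. The share of all genes with r above 0 is not given. Macrophage and Kupffer cell markers, with 15 of 17 above 0 and a median r of 0.36, ran with Cdkn1a as well. Without 1KI replicate 6 their median r fell to 0.25, while that of the cell cycle genes rose. The mean level of the macrophage and Kupffer cell markers per array ranged from 8.41 to 8.76 in wt and from 8.01 to 9.47 in 1KI. Fewer cells of a type and less RNA per cell cannot be told apart in such bulk samples, and the part of cell makeup in these values was not tested.

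**Figure D5:**
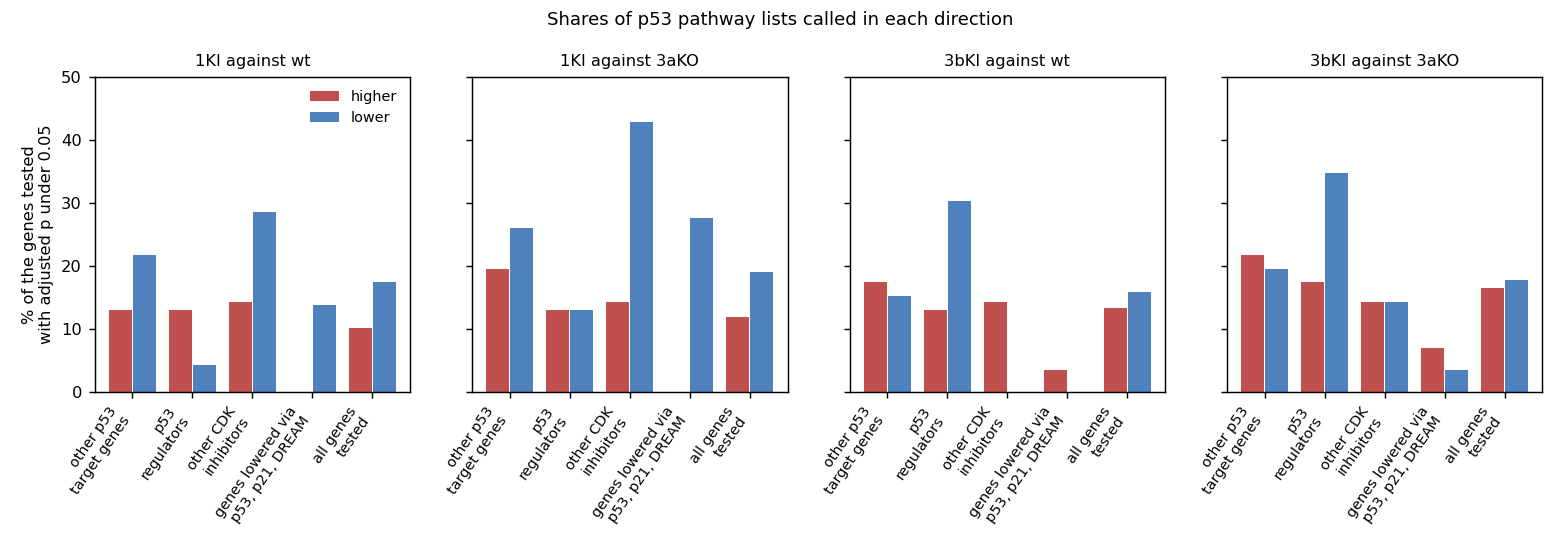
Share of the genes tested (vertical axis, in %) that were higher or lower at an adjusted p of 0.05 in each knock-in comparison, for 4 lists of p53 pathway genes and for all genes. The p53 target list, at 13.0% higher and 21.7% lower in 1KI against wt, stays near the shares of all genes, 10.2% and 17.5%.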

How the data were processed

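Expression was measured on Affymetrix mouse arrays with 45101 probe sets, of which 34945 are annotated to 1 gene symbol, 932 to several and 9160 to none. The deposited values are log2 expression values that the authors normalized in 2 sets of arrays, as the deposited tables show, and the normalization method is not stated in the labels. These values were used as deposited, with 1 probe set a gene (highest mean over the arrays of its normalization). limma 3.58.1 in R 4.3.3 fitted all arrays of a normalization with genotype alone, with Benjamini-Hochberg adjustment over 18193 genes and a threshold of 0.05, and errors of changes are its standard errors. Correlations used 100000 resamples in Python 3.11.15, with Benjamini-Hochberg adjustment over 18 pairs. The scripts were tested on simulated data. The members and lists were chosen with earlier results of these data known. Beyond the members, the named genes are, for each p53 pathway list and comparison, up to 4 called genes with the smallest p, and, for likeness to Cdkn1a, the 8 highest and 4 lowest genes with mean signal above the median. The clock genes other than Dbp were named after their values were seen. Arrays carry no read depth, so their number limits the precision. Replicate numbers were not treated as pairs in the main fit. Of 10 same-numbered pairs of arrays, between 4 (wt with 1KI) and 7 (3aKO with 1KI, median r = 0.241) had a correlation of deviations above 0.1. Of 5 pairs with 3bKI 1 or 2 did. Arrays of unlike number were not compared, so these counts cannot decide whether the numbers pair the samples. In 3aKO and 1KI replicates 1 to 5 have the female pattern of sex-linked genes and 6 to 10 do not, so same-numbered arrays share that pattern there. Alternatives changed the filter, the probe set rule, the scaling, the covariates, the replicates and the arrays used.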

Additional observations from a re-analysis of the deposited data

Results flagged for a closer look

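Of 45 groups of arrays over the members' probe sets, 5 held an array whose gap to the next was large for the group's range by Dixon's criterion. Chance gives this in about 1 of 20 groups, but groups of different probe sets hold the same arrays and are not independent. The groups were 3aKO and 1KI of the first normalization and 3bKI. The wt arrays, more than the critical values used cover, were not tested. 1KI replicate 6 accounted for 3 of them: it was the lowest of 10 at 2 probe sets of Ccng1, with 7.86 at 1450016_at (next 8.56) and 7.51 at 1450017_at (next 8.07), and the highest at the Mdm2 probe set 1457929_at, with 4.98 (next 4.68). The same array had the highest 3′ minus 5′ signal difference, 1.75. 3aKO replicate 10 was the highest of its group at the Mdm2 probe set 1427718_a_at, with 8.31 (next 8.01). 3bKI replicate 4 was the highest of 5 at the Ccng1 probe set 1450016_at, with 9.54 (next 9.29).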

How the results depend on the processing

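The count of the 6 members that passed fell from 5 to 1 in 1KI against wt when the hybridization control level was a block, alone or with the sex index, and from 3 to 0 against 3aKO in both knock-ins. Such a fit sets the knock-ins against 2 wt arrays, and fewer of all genes passed in it too. With the level alone as a block 2.13% were higher and 2.17% lower in 1KI against wt, beside 10.2% and 17.5% in the main fit. Against 3aKO the shares with the block were 1.18% and 1.11% in 1KI, and 2.39% and 4.38% in 3bKI. In 3bKI against 3aKO it was also 1 with the mean of a gene's probe sets, 0 with RNA integrity as a covariate and 1 with the replicate block. In 3bKI against wt it rose from 0 to 1 with the arrays of the compared groups alone, the mean of probe sets, quantile normalization, equal array medians, RNA integrity or the replicate block. The replicate block left 5 calls in 1KI against wt and 3 against 3aKO. Leaving out 1 array at a time gave 4 to 5 calls in 1KI against wt, 3 to 4 against 3aKO, 0 to 2 in 3bKI against wt, 2 to 3 against 3aKO, and 0 in 3aKO against wt.

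Signs turned with the mean of probe sets for Ccng1 (0.011 in 3aKO against wt, -0.059 and -0.077 in 3bKI against wt and 3aKO) and with the level as a block for Sesn2 in 3bKI (-0.20 against wt and -0.20 against 3aKO, or -0.21 and -0.20 with the sex index). With RNA integrity in 3bKI they turned for Mdm2 (-0.094 and -0.10), Ccng1 (-0.14 and -0.088) and Sesn2 (-0.086 and -0.075) against wt and 3aKO, and for Btg2 against 3aKO (-0.094). The cause was not tested.

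The number of correlations that passed went from 1 to 0 with Spearman's rho and without the 2 arrays farthest from the median. It stayed at 1 without 1KI replicate 6, the only array left out on its own for correlations. Trp53inp1 in 3aKO turned to 0.164 with Spearman's rho, 0.0440 in the second normalization, 0.166 with the other probe set of Cdkn1a and 0.029 when centred within the sex pattern, where Gadd45a in 1KI turned to -0.083 and 2 correlations passed. Ccng1 in 1KI turned to -0.340 without the 2 farthest arrays and -0.108 without replicate 6. Sesn2 in 1KI turned to 0.431, 0.0873 and, with the other probe set of Cdkn1a, 0.0895. The other probe set, the centring by sex pattern and leaving out 1KI replicate 6 for correlations were chosen after seeing the data.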

Other observations

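Genes known to respond to glucocorticoids or FOXO factors, signals to which Cdkn1a is also known to respond, were looked at beside Cdkn1a. This list and the clock genes below were chosen with earlier results of these data known. Their shares are therefore given as a description, and the part of these signals in the Cdkn1a values was not tested. Of 28 measured genes of this list 13 rose and 0 fell in 1KI against wt (limma), with a median change of 0.39, where 10.2% of all genes were higher and 17.5% lower. With the hybridization control level in the fit 5 rose and 0 fell, where 2.13% of all genes were higher and 2.17% lower. In 3bKI 2 rose and 9 fell against wt, with a median of -0.11, where 13.4% of all genes were higher and 15.9% lower. The fit with the level gave 1 rise and 4 falls, where 3.31% of all genes were higher and 5.39% lower. The difference between the knock-ins was not tested, since they share no normalization. Of 20 measured clock genes 5 rose and 3 fell in 1KI, and 4 rose and 10 fell in 3bKI, each against wt and beside the same shares of all genes. With the hybridization control level in the fit these were 0 and 0 in 1KI and 0 and 7 in 3bKI, beside the shares given for that fit. With RNA integrity as a covariate they were 0 and 1 in 3bKI, where 1.57% of all genes were higher and 1.75% lower.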
